A study of Mus musculus with 8 samples.

Results

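Calprotectin, lipocalin 2 and 4 genes of macrophages were followed through the colon of mice with and without Il10, the gene of a cytokine that holds back inflammation. The 7 genes were S100a8, S100a9, Lcn2, Lyz2, Laptm5, Csf1r and Cd68. All probe sets annotated to exactly 1 of them were taken, which gave 12 of the 12422 probe sets on the array, and 1 further probe set annotated to both Lyz1 and Lyz2 was read beside them. RNA of whole colon had been pooled from 4 or 5 animals and hybridised to 8 Affymetrix MG_U74Av2 arrays, 1 per pool. The groups were C57BL/6J wild type, C57BL/6J carrying the targeted allele Il10tm1Cgn (Il10-null here), C3H/HeJBir wild type, and C3H/HeJBir carrying Il10tm1Cgn, with 2 pools each, numbered sample 1 and sample 2. An age, 4 weeks, is given for wild-type C57BL/6J sample 2 alone, and the labels name no sex. A pool gives 1 value for its animals, so nothing here separates 1 affected animal from several.

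S100A8 and S100A9 are small calcium-binding proteins that pair to form calprotectin, the main protein of the neutrophil cytosol. It withholds zinc and manganese from bacteria and is measured in stool as a sign of inflamed bowel. Lipocalin 2, released by neutrophil granules and by inflamed epithelium, captures bacterial siderophores. Lyz2 encodes the lysozyme of macrophages and neutrophils, Laptm5 a lysosomal membrane protein of blood cells, Csf1r the receptor through which macrophages receive their survival signal, and Cd68 a lysosomal glycoprotein of macrophages. The healthy colon holds many resident macrophages and few neutrophils.

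The stretches of 250 bases before the RefSeq start sites (build GRCm38.p6, the C57BL/6J reference) are shown for the calprotectin pair, whose intensities were high together in 1 pool, for Lyz2 and Laptm5, each with 1 probe set that read higher in every C3H/HeJBir pool, and for Lyz1, because a probe set cannot separate it from Lyz2. They are written 5′ to 3′ on the gene's strand. Capitals mark matches on either strand to TATAAA (the TATA box), TTNNGNAA (C/EBP), GAGGAA (PU.1) and TGANTCA (AP-1), and neighbouring matches run together. S100a8 lies at chr3:90668821-90669070 (plus strand), S100a9 at chr3:90695722-90695971 (minus), Lyz2 at chr10:117282273-117282522 (minus), Lyz1 at chr10:117292869-117293118 (minus) and Laptm5 at chr4:130913066-130913315 (plus). The Laptm5 stretch lies inside the RefSeq gene, which starts at 130912890, so its positions count from a later start site.
S100a8: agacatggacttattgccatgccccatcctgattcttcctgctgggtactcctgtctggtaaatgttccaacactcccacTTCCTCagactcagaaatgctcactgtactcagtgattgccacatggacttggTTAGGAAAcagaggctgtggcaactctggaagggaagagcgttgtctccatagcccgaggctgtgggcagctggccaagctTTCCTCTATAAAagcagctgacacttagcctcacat
S100a9: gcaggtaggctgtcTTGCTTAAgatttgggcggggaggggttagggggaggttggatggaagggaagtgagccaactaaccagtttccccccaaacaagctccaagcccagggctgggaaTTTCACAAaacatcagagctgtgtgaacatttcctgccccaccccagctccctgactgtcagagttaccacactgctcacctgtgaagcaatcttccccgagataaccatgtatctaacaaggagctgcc
Lyz2: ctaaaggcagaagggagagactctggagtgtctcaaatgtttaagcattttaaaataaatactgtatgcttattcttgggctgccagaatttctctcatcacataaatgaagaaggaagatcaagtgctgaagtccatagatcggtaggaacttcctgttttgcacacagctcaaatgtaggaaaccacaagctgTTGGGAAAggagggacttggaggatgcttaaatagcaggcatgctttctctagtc
Lyz1: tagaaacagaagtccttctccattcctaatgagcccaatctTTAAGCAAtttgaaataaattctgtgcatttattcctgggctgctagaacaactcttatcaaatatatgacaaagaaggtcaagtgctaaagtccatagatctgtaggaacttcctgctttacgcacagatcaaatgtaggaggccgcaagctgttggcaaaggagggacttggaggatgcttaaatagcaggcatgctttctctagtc
Laptm5: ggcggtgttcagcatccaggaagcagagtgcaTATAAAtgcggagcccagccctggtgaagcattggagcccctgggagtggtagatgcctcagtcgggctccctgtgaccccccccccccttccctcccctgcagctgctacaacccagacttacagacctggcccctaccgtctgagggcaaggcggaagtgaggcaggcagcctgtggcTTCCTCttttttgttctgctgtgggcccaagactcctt

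Both calprotectin promoters held a C/EBP match, 1 in S100a8 and 2 in S100a9, and such a match occurred in 36.8% of all 32851 promoters of this length. S100a8 also held 2 PU.1 matches (the motif was present in 23.3% of promoters) and a TATA box from -30 to -25 (12.4%). Laptm5 held a PU.1 match from -38 to -33 and a TATA match from -218 to -213, both inside the annotated gene. Lyz2 and Lyz1 each held 1 C/EBP match, at different places, and none of the other motifs. Aligned end to end, the Lyz1 and Lyz2 stretches were identical at 200 of 252 columns (79.4%), and their last 100 bases at 92. A match is a run of letters, not a measured binding site, and these sequences say nothing of the C3H/HeJBir alleles.

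Calprotectin was high in a single pool. S100a8 read 580.7 in Il10-null C3H/HeJBir sample 1, and 9.53 in the sample 2 pool of the same group. In the other groups it read 35.0 and 19.7 in C57BL/6J wild type, 34.6 and 23.6 in C57BL/6J Il10-null, and 22.2 and 34.1 in C3H/HeJBir wild type, each as sample 1 and sample 2. The 2 pools of C3H/HeJBir Il10-null were thus the highest and the lowest of all 8, and the high one stood 16.6-fold above the next pool and 24.6-fold above the median of the other 7. These 2 pools are not like replicates: they also differed in hybridisation day and in Xist, a transcript of female cells. As in every group, Xist was high with sample 1 and low with sample 2. What these differences contributed to the calprotectin contrast was not tested. In bulk RNA of this kind, more cells of a type and more RNA per cell cannot be told apart.

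S100a9, the partner subunit, showed the same arrangement. It read 173 in Il10-null C3H/HeJBir sample 1 and 1.83 in sample 2, against 7.10 and 7.13 in C57BL/6J wild type, 5.83 and 9.27 in C57BL/6J Il10-null, and 9.74 and 6.25 in C3H/HeJBir wild type. The other 7 pools all lay under 11.07, the 20th percentile of all values on the arrays, and were not shown to be above background. Against that level the high pool was at least 15.6-fold higher. Over the 8 pools the log2 values of the subunits correlated with a Pearson coefficient of 0.97, which rests on the 1 high pool, since over the other 7 it was 0.52. S100a8 and S100a9 are neighbours on chromosome 3, and each was read by 1 probe set.

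**Figure D1:**
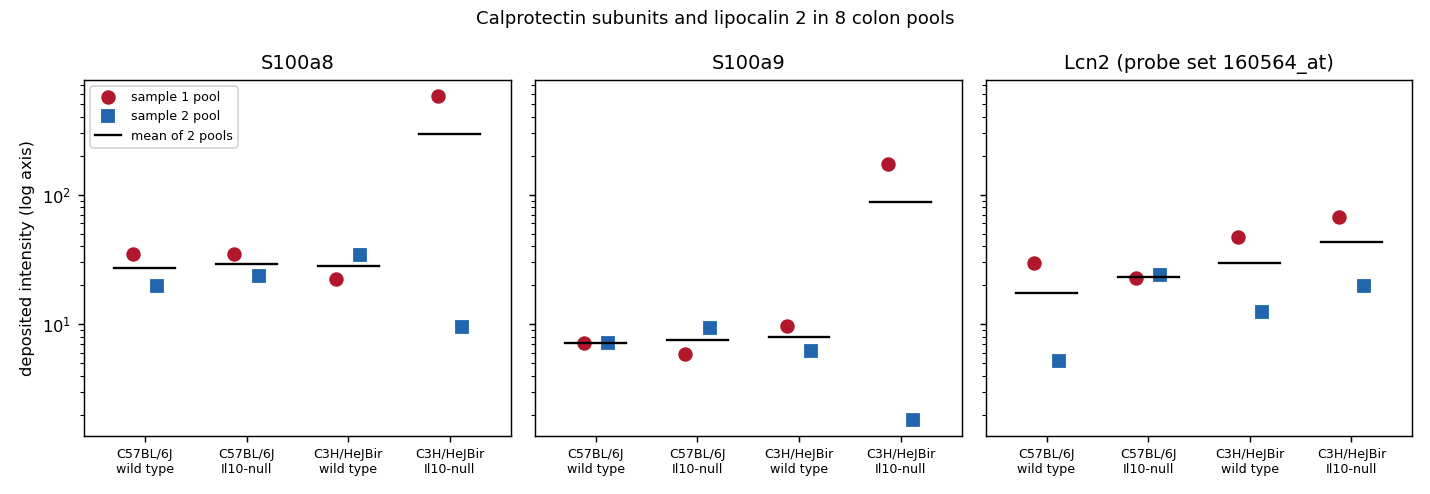
Deposited intensity (log axis) of S100a8, S100a9 and the dimmer Lcn2 probe set in each of the 8 pools, with sample 1 pools as circles, sample 2 pools as squares and the mean of the 2 pools of a group as a bar. For both calprotectin subunits 1 circle, Il10-null C3H/HeJBir sample 1, lies at 580.7 and 173 while the other 7 pools reach at most 35.0 and 9.74.

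The loss of Il10 in C3H/HeJBir gave a large mean difference with a spread as large. S100a8 averaged 295 ± 404 (SD, n = 2) in the Il10-null pools against 28.1 ± 8.41 in wild type, in log2 a difference of 1.51 ± 1.23 (SE), short of the threshold (limma adjusted p = 1.00). For sample 1, with the genotypes run on different days, the log2 difference was 4.15. For sample 2, run on 1 day, it was -1.13. Without the sample 1 Il10-null pool the value turned to -0.91 (limma adjusted p = 1.00). Without the sample 2 Il10-null pool it was 3.93 (limma adjusted p = 0.0406), and the strain difference among Il10-null pools was 3.89 (limma adjusted p = 0.00983), with the lone pool assumed to vary like the other groups. Both values are those of the 1 high pool, which also took S100a8 over the filter, so they add nothing to its reading. When hybridisation day was fitted as a block, the Il10 difference was 0.24 in C3H/HeJBir and -1.19 in C57BL/6J (limma adjusted p = 1.00 for each). The sample 1 genotypes shared no day. This fit therefore took the mean Il10 difference of both strains from sample 2 alone, and the difference between the strains from all pools. Its C57BL/6J value thus carries the C3H/HeJBir pools: within C57BL/6J the log2 difference was -0.01 for sample 1 and 0.17 for sample 2.

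S100a9 was below the filter on low values, and its mean difference in C3H/HeJBir was a log2 of 1.36. In the fit without that filter it did not pass (limma adjusted p = 1.00). It too changed sign without the sample 1 Il10-null pool (-0.56), and was 3.27 without the sample 2 pool, and with a block on the hybridisation day it was 0.53. In C57BL/6J its log2 difference was 0.03, with -0.10 for sample 1 and 0.16 for sample 2. With that block it was -0.80, a value that, as for S100a8, carries the C3H/HeJBir pools and is no reading of C57BL/6J alone. S100a8 itself passed the filter only through the 1 high pool: the other 7 averaged 25.5, under the limit of 37.0. In C57BL/6J the loss of Il10 gave a log2 of 0.08 ± 1.23 for S100a8, with overlapping pools (limma adjusted p = 1.00). The difference between the strains in the Il10 effect on S100a8 was 1.43 ± 1.74 (limma adjusted p = 1.00).

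Lipocalin 2 was read by a pair of probe sets that differed in their pattern. On the dimmer one, below the filter, Lcn2 read 67.2 in Il10-null C3H/HeJBir sample 1, the highest of the 8, and 19.7 in its sample 2 pool. The wild-type pools of that strain read 46.9 and 12.4, the C57BL/6J Il10-null pools 22.7 and 23.8, and the C57BL/6J wild-type pools 29.9 and 5.23. The high pool stood 1.43-fold above the next, so Lcn2 did not set this pool apart as the calprotectin subunits did. On the brighter one, which was tested, all pools lay between 30.3 and 68.3, with the sample 1 pool of C3H/HeJBir wild type on top and the sample 1 Il10-null pool at 56.4. Its log2 difference was 0.16 ± 0.31 in C3H/HeJBir and -0.07 ± 0.31 in C57BL/6J (limma adjusted p = 1.00 for each).

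Other genes known from neutrophils were mostly, not uniformly, higher in that pool. Of 38 listed genes 27 were on the array and 10 were tested. None passed in any comparison, and their median log2 difference with the loss of Il10 was 0.30 in C3H/HeJBir, beside -0.01 over all tested probe sets, and 0.03 in C57BL/6J, beside -0.01. The 10 included 7 that were highest of the 8 pools in Il10-null C3H/HeJBir sample 1, where 19.3% of all tested probe sets were highest. The summed intensity of the 27 was 4193 in that pool and 1951 to 2634 in the other 7.

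Of the 27, tested or not, 15 were highest of the 8 pools in that one, 10 were at least 2 times the median of the other 7, and 6 were below that median. Over all 12422 probe sets these counts were 2658, 1564 and 5434. Examples of both kinds, chosen after their values were seen, follow. Camp, the cathelicidin of secondary granules, read 94.7 in that pool against 17.4 to 52.8 in the other 7, and Ltf, lactoferrin, 82.5 against 15.4 to 35.3. Il1b, the inflammatory cytokine interleukin 1 beta, read 44.2 against 1.88 to 9.54. These secondary granule and cytokine genes were highest there. Mpo, the myeloperoxidase of primary granules, read 8.21 against 12.5 to 29.1, Elane, neutrophil elastase, 14.9 against 7.05 to 33.3, and Csf3r, the receptor for granulocyte colony-stimulating factor, 59.7 against 140.1 to 320. The 8.21 of Mpo, the lowest Elane value and the Il1b values of the other 7 pools lay under 11.07. They were not shown to be above background. By the naming rule the members with the largest log2 differences were Padi4, an arginine deiminase of neutrophil extracellular traps, at 1.40 ± 0.39 with the loss of Il10 in C3H/HeJBir, and Il1r2, the interleukin 1 decoy receptor, at 1.22 ± 0.78 for the difference of the Il10 effects (limma adjusted p = 1.00 for each). Il1r2 was highest in Il10-null C3H/HeJBir sample 1, at 91.7. Padi4 was not: it read 60.8 there and 87.3 in Il10-null C57BL/6J sample 1. In C3H/HeJBir wild type Padi4 read 19.15 and 9.57, the latter under 11.07.

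**Figure D2:**
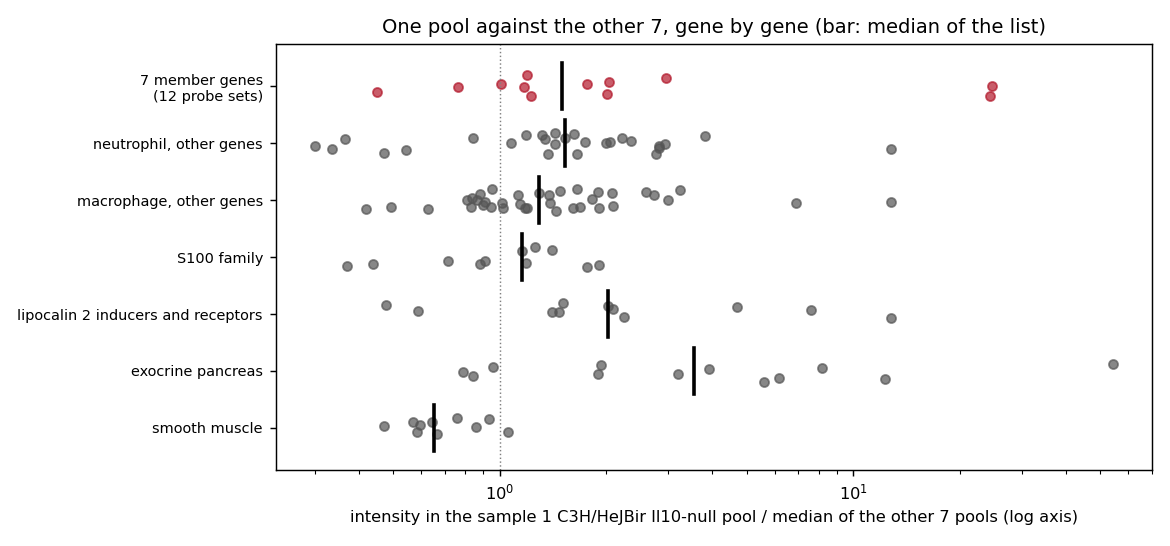
Intensity of each gene in Il10-null C3H/HeJBir sample 1 divided by its median in the other 7 pools (log axis), 1 point per probe set or gene, with a bar at each list's median. S100a8 and S100a9 lie at 24.6 and 24.3, the latter over a median that is itself under 11.07, and the medians are 1.53 for the other neutrophil genes, 1.29 for the other macrophage genes, 3.56 for exocrine pancreas and 0.65 for smooth muscle.

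The same pool differed in other tissue markers. It correlated least with the other arrays, with a mean Spearman coefficient over probe sets of 0.915, where the other 7 had 0.931 to 0.945. Exocrine pancreas genes, 12 of 22 listed on the array, summed to 5586 there, against 1624 to 3997 in the other pools, and 0 of the 10 tested passed in any comparison. Their largest log2 differences were those of Prss2, a trypsinogen, at 1.58 ± 1.88, and Reg1, a lectin of pancreatic acini, at 1.21 ± 0.89, both between the wild-type strains (limma adjusted p = 1.00). The 10 smooth muscle genes on the array summed to 10100 there, against 12239 to 17717. The 13 colonocyte and goblet cell genes summed to 41233, against 41753 to 46650, the 15 T and NK cell genes to 577, against 294 to 457, and the 8 adipocyte genes to 885, against 683 to 1363. Erythrocyte and platelet genes, 6 of 13 on the array, summed to 3661 there, against 3950 to 5673. Gene by gene, 3 of these 6 read below the median of the other 7 pools. The median ratio to it was 1.06, beside 1.07 over all probe sets, so the low sum does not stand for the whole list. The part of these markers in the calprotectin values was not tested.

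None of the tested genes of these marker lists passed in any comparison, which were 10 for smooth muscle, 12 for colonocytes and goblet cells, 3 for T and NK cells, 6 for adipocytes and 4 for erythrocytes and platelets. The largest differences among lymphocyte genes were those of the granzymes Gzmb (log2 0.90 ± 0.35) and Gzma (0.87 ± 0.39), both with the loss of Il10 in C3H/HeJBir (limma adjusted p = 1.00). Smtn, smoothelin, and Tpm2, a tropomyosin, had -0.62 ± 0.38 and -0.60 ± 0.32 between the wild-type strains (limma adjusted p = 1.00). Scd1, a fatty acid desaturase, had -0.99 ± 0.60 between the Il10-null strains and Lpl, lipoprotein lipase, -0.49 ± 0.36 with the loss of Il10 in C3H/HeJBir (limma adjusted p = 1.00 for each). Hbb-b2, a beta globin, had 1.43 ± 0.44 between the wild-type strains (limma adjusted p = 0.529) and Slc4a1, the anion exchanger of red cells, 1.07 ± 0.53 for the difference of the Il10 effects (limma adjusted p = 1.00). Spdef, a goblet cell factor, had -0.92 ± 0.48 for that difference, and Krt20, a keratin of surface colonocytes, 0.44 ± 0.32 with the loss of Il10 in C3H/HeJBir (limma adjusted p = 1.00 for each).

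Relatives of calprotectin did not share its height. Of 12 other S100 genes 11 were on the array, and in Il10-null C3H/HeJBir sample 1 their intensities were 0.37 to 1.91 times the median of the other 7. None of the 8 tested passed in any comparison, and the largest differences were those of S100a14 between the wild-type strains (log2 0.67 ± 0.36) and of S100a3 for the difference of the Il10 effects (0.64 ± 0.59, limma adjusted p = 1.00 for each). Of 12 genes of calprotectin's receptors and their signalling 7 were on the array and 5 tested. Cd14, the co-receptor for lipopolysaccharide, was the 1 that passed, between the strains, and its values follow with the macrophage genes. Tlr4, the receptor itself, was among the 12 listed, and no value of it is reported here. C3H/HeJ mice, from which C3H/HeJBir derives, are known for a Tlr4 allele that does not respond to lipopolysaccharide.

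Of 13 inducers and receptors of lipocalin 2, 11 were on the array and 5 tested, and none passed in any comparison. Nfkbiz, a nuclear cofactor that Lcn2 induction needs, had the largest difference, a log2 of 1.01 ± 0.27 with the loss of Il10 in C3H/HeJBir (limma adjusted p = 1.00). It read 364 and 260.3 in the Il10-null pools against 134 and 163 in wild type, so both Il10-null pools lay above both wild-type pools. The same order held for Nfkbiz in C57BL/6J, so it was not particular to C3H/HeJBir. In either direction such groups did not overlap for 23.3% of all tested probe sets in C3H/HeJBir and 26.2% in C57BL/6J. Slc22a17, a lipocalin 2 receptor, had a log2 of -0.83 ± 0.51 for the difference of the Il10 effects (limma adjusted p = 1.00). The median over the 5 was 0.43 in C3H/HeJBir and 0.26 in C57BL/6J, beside -0.01 over all tested probe sets in each strain.

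Lyz2 was higher in C3H/HeJBir than in C57BL/6J, in both genotypes. On the brighter of its probe sets it read 210.1 and 211 in C57BL/6J wild type, 105 and 253 in C57BL/6J Il10-null, 339 and 401 in C3H/HeJBir wild type, and 516 and 303 in C3H/HeJBir Il10-null, as sample 1 and sample 2. All 4 C3H/HeJBir pools lay above all 4 C57BL/6J pools. The means over 4 pools were 390 ± 93.4 and 195 ± 63.3, a ratio of 2.00. In order the groups averaged 179 ± 105 (C57BL/6J Il10-null), 211 ± 0.700 (C57BL/6J wild type), 370 ± 43.6 (C3H/HeJBir wild type) and 409 ± 151 (C3H/HeJBir Il10-null), and neighbours of the same strain did not differ beyond their spread.

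None of these Lyz2 differences passed. The log2 difference between the strains was 0.78 ± 0.41 in wild type (limma adjusted p = 1.00) and 1.21 ± 0.41 in Il10-null (limma adjusted p = 0.663). Averaged over both genotypes, a comparison added after the values were seen, it was 1.00 ± 0.29 (limma adjusted p = 0.259, unadjusted p = 0.00818 in the same limma fit). Within the sample 1 pools the strains differed by 0.66 in wild type and 2.18 in Il10-null, and within the sample 2 pools by 0.89 and 0.25, each pair hybridised on the same day. The shared direction of these 4 pairs adds nothing, since every C3H/HeJBir pool lay above every C57BL/6J pool on this probe set. Without Il10-null C57BL/6J sample 1 the Il10-null value was 0.62.

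The probe set shared by Lyz1 and Lyz2 read 446 and 470 in C57BL/6J wild type and 699 and 909 in C3H/HeJBir wild type, which did not overlap. In the Il10-null pools it read 243 and 661 in C57BL/6J and 966 and 503 in C3H/HeJBir, which did. Lyz1 is the lysozyme of Paneth cells, which the colon normally lacks. Of 14 Paneth and small intestinal genes 7 were on the array, summing to 1698 to 2610 in C57BL/6J and 1503 to 2208 in C3H/HeJBir, and 1 of 3 tested passed. That was Mmp7, matrilysin, which read 5.84 to 12.4 in C57BL/6J and 115 to 308 in C3H/HeJBir (log2 3.17 ± 0.28 in wild type, limma adjusted p = 0.00404, and 3.56 ± 0.28 in Il10-null, limma adjusted p = 0.00271). With the 50th percentile pseudocount these were 1.69 and 2.22, and the wild-type call was lost without either C57BL/6J wild-type pool (limma adjusted p = 0.0512 and 0.0647). The Paneth defensin Defa24 read 3.50 to 18.7 in all pools. The part of these cells in the lysozyme values was not tested. The other Lyz2 probe set read 0.51 to 1.70, and its mean exceeded that of 0.21% of all probe sets, so it measured no difference.

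Laptm5 followed the strain on 1 of its probe sets. On the dimmer one it read 33.6 and 68.8 in C57BL/6J wild type, 25.8 and 87.8 in C57BL/6J Il10-null, 100.5 and 158 in C3H/HeJBir wild type, and 177 and 100.2 in C3H/HeJBir Il10-null. Again all 4 C3H/HeJBir pools lay above all 4 C57BL/6J pools, with means of 134 ± 39.7 and 54.0 ± 29.3, a ratio of 2.48. The log2 difference was 1.20 ± 0.51 in wild type (limma adjusted p = 0.869) and 1.26 ± 0.51 in Il10-null (limma adjusted p = 0.897), and 1.23 ± 0.36 averaged over both (limma adjusted p = 0.272, unadjusted p = 0.00917 in the same limma fit). Within a sample number it was 1.32 and 1.08 in wild type, and 2.35 and 0.17 in Il10-null. Without Il10-null C57BL/6J sample 1 the Il10-null value was 0.55.

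The other Laptm5 probe set disagreed in size. On this brighter one, C57BL/6J read 83.7 to 162 and C3H/HeJBir 142 to 201, which overlapped, and the average log2 difference was 0.32 ± 0.22 (limma adjusted p = 0.887). Laptm5 is also expressed in lymphocytes, and B and plasma cell genes summed higher in C3H/HeJBir wild type, though 0 of the 8 tested passed in any comparison. The 10 of 12 listed that were on the array summed to 897 and 1203 in C57BL/6J wild type and to 1619 and 1687 in C3H/HeJBir wild type, while in Il10-null pools they summed to 1050.0 and 1237, against 990.0 and 1885. The largest differences were those of Cd79a, a part of the B cell receptor, at a log2 of -1.72 ± 0.54 with the loss of Il10 in C3H/HeJBir (limma adjusted p = 1.00), and Jchain, the joining chain of IgA and IgM, at 1.24 ± 0.36 between the wild-type strains (limma adjusted p = 0.437). The part of these cells in the Laptm5 values was not tested.

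**Figure D3:**
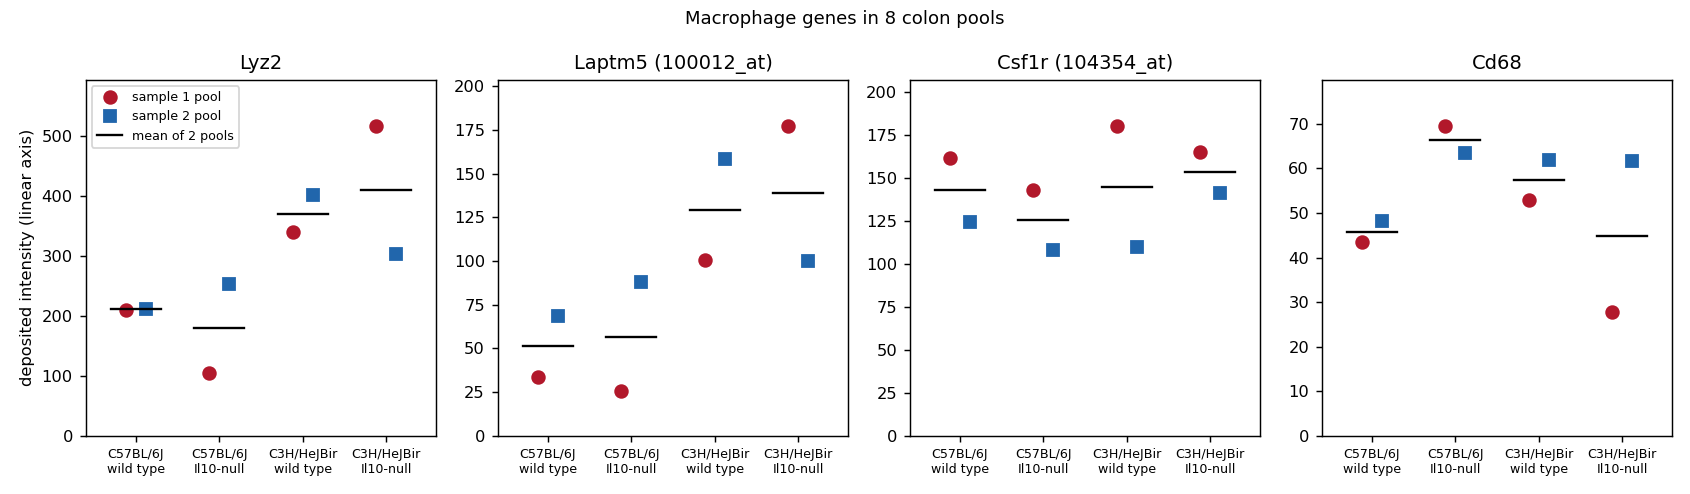
Deposited intensity (linear axis from 0) of Lyz2, Laptm5, Csf1r and Cd68 in each pool, with sample 1 pools as circles, sample 2 pools as squares and group means as bars. For Lyz2 and for Laptm5, drawn from its dimmer probe set, the C3H/HeJBir pools all lie above the C57BL/6J pools. On the brighter Laptm5 probe set, not drawn, the strains overlapped. For Csf1r each circle lies above every square.

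Read against the whole array, the strain pattern of the members was as follows. By limma 0 of the 8 tested member probe sets passed between the wild-type strains, where 0.403% of all tested probe sets passed, 0 between the Il10-null strains (0.295%) and 0 in the average over both (1.11%). At an unadjusted limma p under 0.05 there were 1, 2 and 2 of the 8, beside 5.68%, 5.17% and 8.43% of all tested probe sets. All 4 C3H/HeJBir pools lay above all 4 C57BL/6J pools in 2 of the 8, Lyz2 and the dimmer Laptm5 probe set, and in 2.67% of all tested probe sets. Groups of 2 pools did not overlap between the strains in 3 of 8 in wild type (31.0% of all tested) and in 4 of 8 in Il10-null (27.2%).

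The loss of Il10 changed none of the members by this test: limma called 0 of 8 in C57BL/6J (0.0% of all tested probe sets were called), 0 of 8 in C3H/HeJBir (0.0134%) and 0 of 8 for the difference of the Il10 effects (0.0%). In each of these 3 comparisons 0 of the 8 stood at an unadjusted limma p under 0.05, as did 118 of all tested probe sets in C57BL/6J (1.58%), 211 in C3H/HeJBir (2.83%) and 112 for the difference (1.5%). Il10-null and wild-type pools did not overlap in 2 of 8 in C57BL/6J (26.2% of all tested) and in 0 of 8 in C3H/HeJBir (23.3%). The median log2 difference over the 8 was -0.10 in C57BL/6J and 0.09 in C3H/HeJBir, beside -0.01 over all tested probe sets in each. With 2 pools a group, these counts do not show that the genes were unaffected.

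**Figure D4:**
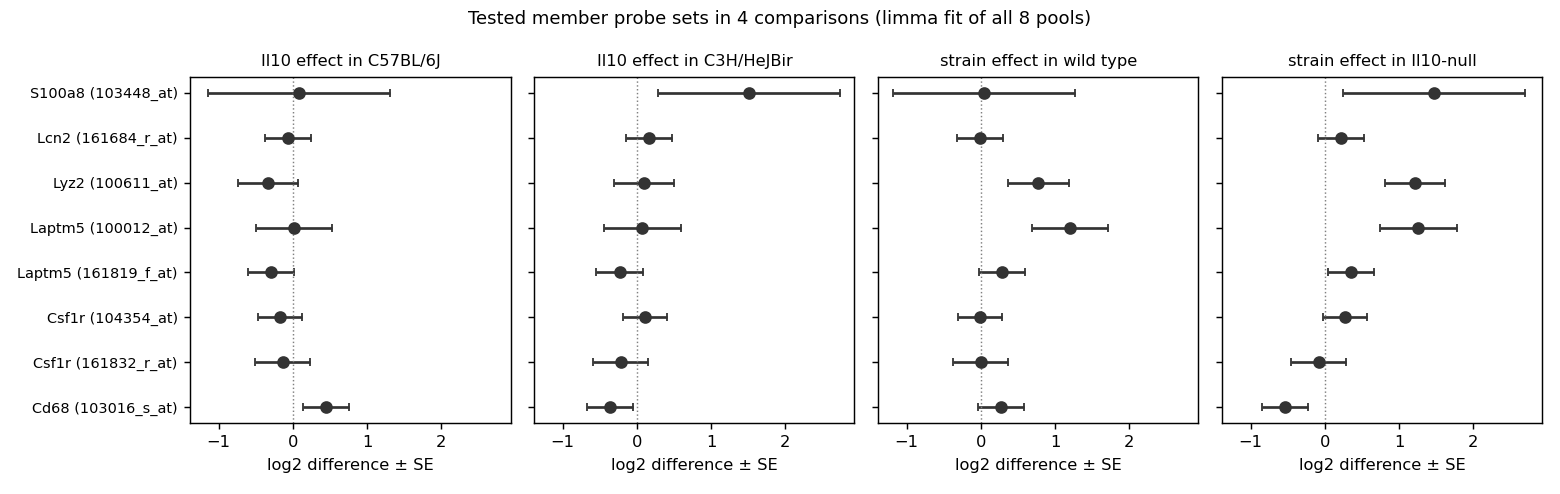
Log2 differences with SE from the limma fit of all 8 pools for the 8 tested member probe sets, as Il10-null minus wild type in each strain and as C3H/HeJBir minus C57BL/6J in each genotype. Lyz2 and the dimmer Laptm5 probe set lie to the right in both strain comparisons, at 0.78 to 1.26, and S100a8 has the widest error, 1.23.

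Csf1r, on which tissue macrophages depend, followed neither strain nor genotype. On the brighter of its probe sets it read 162 and 124 in C57BL/6J wild type, 143 and 108 in C57BL/6J Il10-null, 179.9 and 109.8 in C3H/HeJBir wild type, and 165 and 141 in C3H/HeJBir Il10-null. The group means lay between 125 and 153, within the spread of the pools. Each sample 1 pool was above every sample 2 pool, on this probe set (142.9 to 179.9 against 108 to 141.1) and on the other (143.1 to 204 against 103 to 120.0), an arrangement that 8.95% of all tested probe sets shared. Xist, the RNA of the inactive X chromosome of females, also separated them, at 243 to 452 against 2.84 to 12.9, as did the hybridisation days, and their part in the Csf1r values was not tested. The strain difference on the brighter probe set averaged a log2 of 0.13 ± 0.21 (limma adjusted p = 1.00).

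The axis around Csf1r was read through 15 further genes, 13 on the array and 8 tested. None passed in a planned comparison, and Grb2, an adaptor that couples receptor kinases to Ras, came nearest, with a log2 of -1.46 ± 0.24 between the Il10-null strains (limma adjusted p = 0.0621). It read 246 and 234 in C57BL/6J Il10-null against 68.7 and 93.7 in C3H/HeJBir Il10-null, and in the average over both genotypes its log2 difference was -1.10 (limma adjusted p = 0.0235). Neither reading was stable: the average passed in 7 of 16 alternatives (limma adjusted p = 0.00880 to 0.126), and lost its call without any 1 pool other than Il10-null C3H/HeJBir sample 2, while the Il10-null difference passed in 3 of 17 (0.0270 to 0.468). Spi1, which encodes PU.1, the master factor of myeloid cells, had a log2 of -0.88 ± 0.32 between the Il10-null strains (limma adjusted p = 0.747). The median strain difference of the 8 was -0.29 in wild type and -0.26 in Il10-null, beside -0.02 over all tested probe sets in each.

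Cd68 was lowest where calprotectin was highest. On its brighter probe set it read 27.8 in Il10-null C3H/HeJBir sample 1 and 61.7 in the sample 2 pool. It read 43.5 and 48.2 in C57BL/6J wild type, 69.5 and 63.5 in C57BL/6J Il10-null, and 52.9 and 62.0 in C3H/HeJBir wild type. The C57BL/6J Il10-null pools lay above the wild-type pools of that strain, in log2 by 0.45 ± 0.31, short of the threshold (limma adjusted p = 1.00). C3H/HeJBir was above C57BL/6J in both wild-type pools and below it in both Il10-null pools, and the test of that difference gave a log2 of -0.81 ± 0.44 (limma adjusted p = 1.00). It was -0.36 without Il10-null C3H/HeJBir sample 1 and -1.26 without sample 2 of that group. The other Cd68 probe set read 0.63 to 2.69 in all pools and measured no difference.

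The wider macrophage list held 43 genes, of which 37 were on the array and 26 tested. Cd14 was the 1 that passed, in both strain comparisons, though not under every alternative. It read 344 and 341 in C57BL/6J wild type, 485 and 556 in C57BL/6J Il10-null, 1696 and 1881 in C3H/HeJBir wild type, and 3830 and 2338 in C3H/HeJBir Il10-null (log2 2.34 ± 0.28 in wild type, limma adjusted p = 0.00956, and 2.50 ± 0.28 in Il10-null, limma adjusted p = 0.0112). With a block on the hybridisation day neither passed (limma adjusted p = 0.0653 and 0.0699), the wild-type call was lost without any 1 of the 4 wild-type pools (0.0864 to 0.117), and the Il10-null call was lost without either Il10-null C57BL/6J pool (0.136 and 0.0884) and in the fit of its groups alone (0.0723). The average over both genotypes, 2.42, passed in 16 of 16 alternatives. The median of the 26 was -0.09 and 0.17 in these comparisons, beside -0.02 over all tested probe sets in each. Of the 26, 10 had a log2 difference above 0 between the wild-type strains and 20 between the Il10-null strains, beside 47.2% and 47.0% of all tested probe sets. The pools of the strains did not overlap for 6 that read higher and 5 that read lower in C3H/HeJBir wild type, and for 7 and 2 in Il10-null. In either direction this held for 31.0% of all tested probe sets in wild type and 27.2% in Il10-null. With the loss of Il10 the median was -0.05 in C57BL/6J and 0.05 in C3H/HeJBir. In Il10-null C3H/HeJBir sample 1 13 of the 26 were highest of the 8 pools, where 19.3% of all tested probe sets were, and the summed intensity of the 37 was 19818 there against 14925 to 17424 in the other 7. Cd14 alone gave 3830 of this sum, against 341 to 2338 in the other 7, so the sum does not show a rise across the list. Of the 37, 18 were highest in that pool and 12 were below the median of the other 7. Over all 12422 probe sets these counts were 2658 and 5434.

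Genes with the most similar course over the 8 pools were found by the Pearson correlation of log2 values, among tested probe sets of other genes. Nearest to S100a8 were Nfkbia (0.96), Zdhhc3 (0.96) and Mlx (0.95), and nearest to S100a9 were Pip4k2c (0.99), S100a8 (0.97) and Anxa2 (0.96). All of these were highest in Il10-null C3H/HeJBir sample 1: Nfkbia, the NF-kB inhibitor, read 702 there and 372 to 444 in the other 7. Lyz2 was closest to Ifi204 (0.96), Tnfsf10 (0.95) and Ighv1-54 (0.94), and the brighter Laptm5 probe set, not the one that followed the strain, to Zfp94 (0.95), Pheta1 (0.95) and Urm1 (0.93). The brighter Lcn2 probe set was closest to Xab2 (0.99), Fscn1 (0.96) and Crlf3 (0.96), Csf1r to Bckdk (0.97), Tmem129 (0.96) and Prpf8 (0.96), and Cd68 to Bet1 (0.98), Ehhadh (0.95) and Papss2 (0.93). Over the 7 pools without Il10-null C3H/HeJBir sample 1, a reading added after the values were seen, the coefficients of S100a8 fell to 0.45 to 0.62 and those of S100a9 to 0.48 to 0.64. Those of Cd68 were 0.95 with Bet1, 0.81 with Ehhadh and 0.86 with Papss2. The others stood between 0.92 and 0.99. These genes were picked for their likeness, so the coefficients describe these arrays and test nothing.

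Across the arrays, median intensity was 50.1 to 62.1. Il10 itself read 5.43 to 10.9 in wild-type and 22.0 to 51.7 in Il10-null pools, and the place of its probes relative to the targeted change is not known here, so it checks no label.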

How the data were processed

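Colon RNA of 8 mouse pools was hybridised to MG_U74Av2 arrays, per the file headers. The authors deposited 1 intensity per probe set on a linear scale, 0.03 to 12860, already brought to a common level (trimmed means differed by a ratio of 1.01). How probes were summarised is not given in these sources. Groups came from the sample titles. Probe sets were named through the platform annotation, updated by gene number to RefSeq (GRCm38.p6): 10833 had 1 symbol, 396 several and 1193 none.

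Values were taken as log2(intensity + 11.07), the 20th percentile of all values, so folds of low genes are understated. Probe sets with a mean of at least 37.0 (40th percentile) were tested: 7453, among them 8 of the 12 member probe sets. A model of 4 group means was fitted to all pools with limma 3.58.1 in R 4.3.3, two-sided, with Benjamini-Hochberg adjustment over all 7453 and a threshold of 0.05. It was tested on simulated data with large changes and independent noise, without differences of day or Xist between pools. That test does not show how the model performs for smaller changes or for pools that differ in this way. The members and lists were chosen with earlier results of these data known. Named were all member probe sets, list members past the threshold in a planned comparison or else the 2 with the largest log2 difference, and the 3 most correlated genes. For list genes with more than 1 probe set, the brightest by mean was used. The labels call sample 2 an independent replicate of sample 1. Within every group the 2 pools also differed in hybridisation day and in Xist. The p values and SE therefore cover the spread between pools with these differences included. The experiment files gave 3 hybridisation days, with the sample 1 Il10-null, the sample 1 wild-type and all sample 2 pools on 1 each. Alternatives were pseudocounts, filters, quantile normalization, moderation, the groups fitted, blocks on sample number and day, and leaving out each pool.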

Additional observations from a re-analysis of the deposited data

How the results depend on the processing

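The count of member probe sets called by limma was 0 in 97 of 100 combinations of comparison and alternative. The exceptions came from leaving out Il10-null C3H/HeJBir sample 2, where S100a8 passed in C3H/HeJBir, between the Il10-null strains and in the average strain effect, so that counts over the left-out pools ran from 0 to 1 in each. Its log2 difference was then 3.93 in C3H/HeJBir and 3.89 between the Il10-null strains, and without Il10-null C3H/HeJBir sample 1 these turned to -0.91 and -0.95. Over all alternatives the average strain difference ran from 0.70 to 1.29 for Lyz2 (limma adjusted p = 0.0777 to 0.620) and from 0.80 to 1.59 for the dimmer Laptm5 probe set (0.102 to 0.669). Counts over all probe sets moved more. The Il10 effect in C57BL/6J gave 1 with the 50th percentile pseudocount, the 60th percentile filter and trend moderation. That in C3H/HeJBir gave 0 with the 5th percentile pseudocount, without a filter, with a block on the day and in the fit of its groups alone, and 0 to 7 without a pool. The wild-type strain effect gave 53 with the 50th percentile pseudocount, 51 with trend moderation, 49 in its groups alone and 2 to 39 without a pool. The Il10-null strain effect gave 45 with that pseudocount, 45 with trend moderation, 14 without a filter, 6 with a block on the day, 12 in its groups alone and 4 to 34 without a pool, and the average 39 to 106 without a pool.

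Deviations of pools with the same sample number correlated at 0.198 to 0.332 over the 6 pairs of groups, and the labels do not say that the number pairs them. With the replicate block on the sample number 0 member probe sets were called in any comparison, and the counts over all probe sets were 0 and 1 for the Il10 effects, 0 for their difference, 31 and 23 for the strain effects and 96 for their average. The 2 pools per group limit the precision throughout, and values near the pseudocount carry little of it.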
